A study of Mus musculus with 9 samples.

Results

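The Krüppel-like factor (Klf) transcription factor genes described here are Klf2, Klf3, Klf4, Klf5, Klf6, Klf7, Klf9, Klf10, Klf12 and Klf13, which are 10 of the 17 Klf genes and of 21883 protein-coding genes in the mouse RefSeq annotation used. The genes were chosen by the positions of Sox2 summits: each was searched for summits inside its span or within 50 kb in every list of Sox2 binding. Since the genes were listed with these summits in view, which of them have a summit is a description without a test. Mouse lung epithelial cells were used for ChIP-seq, in which DNA bound by Sox2 is pulled down with a goat antibody against Sox2 and sequenced. The libraries came from cells with ectopic Sox2 expression and deletion of Nkx2-1, from cells with ectopic Sox2 expression, and from wildtype cells. All 3 groups shared the C57BL/6 strain and an age of 8 weeks. No source used here gives the alleles, the promoter behind the ectopic Sox2, or how Nkx2-1 was deleted. The series has 9 libraries, and each of the 3 conditions has 1 Sox2 ChIP library with a list of summits, 1 input library and 1 IgG library. The data of the input and IgG libraries were not read here, and control background enters only through the listed values of each summit.

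Klf proteins are transcription factors that bind GC-rich and CACCC sequences through zinc fingers at the end of the protein, and they act as activators or repressors depending on the cofactors they recruit. In the lung, Klf5 acts in epithelial growth and maturation of the gas-exchange surface, and Klf2 acts in lung maturation and in endothelium. Klf4 builds the barrier of stratified epithelium and is used together with Sox2 to reprogramme cells to pluripotency. Sox2 marks the proximal airway and the oesophagus in the foregut, and Nkx2-1 is the factor that sets lung identity.

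The list with Nkx2-1 deletion held 2589 summits, the ectopic Sox2 list 229 and the wildtype list 552. Depth, recovered from the listed values, averaged 1.45 ChIP fragments at a genome position with Nkx2-1 deletion, 0.763 with ectopic Sox2 and 0.964 for wildtype. Each condition has 1 library, so comparisons between conditions lack replicates and carry no p-value. Intervals are exact 95% Poisson or conditional binomial intervals and cover counting error only. Fewer cells with Sox2 bound and less Sox2 bound per cell cannot be told apart in such libraries.

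In the library with Nkx2-1 deletion, 4 of the 10 Klf genes had summits within 50 kb, namely Klf5, Klf6, Klf12 and Klf13, against 13.1% of all protein-coding genes. With ectopic Sox2 alone the gene was Klf13 only, 1 of 10, against 1.53% of all protein-coding genes. In wildtype there were 2 of 10, Klf6 and Klf13, against 2.85%. The 4 genes held 9 summits with Nkx2-1 deletion, 1 with ectopic Sox2 and 2 for wildtype. The windows of the 10 genes covered 1.66 Mb, so that these summits came to 5.41 per Mb with Nkx2-1 deletion, 0.602 per Mb with ectopic Sox2 and 1.20 per Mb for wildtype. The merged windows of all protein-coding genes, 1686 Mb, held 1.18 summits per Mb with Nkx2-1 deletion, 0.102 with ectopic Sox2 and 0.230 for wildtype. Within 10 kb, Nkx2-1 deletion had 2 of the 10 Klf genes (6.46% of all genes), ectopic Sox2 0 (0.736%) and wildtype 0 (1.37%). Within 100 kb the counts were 4 with Nkx2-1 deletion (20.7%), 1 with ectopic Sox2 (2.45%) and 2 for wildtype (4.66%). Keeping summits whose −log10 q reached 5, they were 3 with Nkx2-1 deletion (8.83%), 1 with ectopic Sox2 (1.18%) and 2 for wildtype (1.87%). Taking the nearest gene of each summit at any distance, they were 5 with Nkx2-1 deletion (8.48%), 2 with ectopic Sox2 (1.00%) and 2 for wildtype (2.18%). Klf2, Klf3, Klf4, Klf7, Klf9 and Klf10 had no listed summit within 50 kb in any library. Nearest to the 50 kb limit were a summit 34.4 kb from Klf13 on the inside and a summit 57.6 kb from Klf6 on the outside, both with Nkx2-1 deletion.

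**Figure D1:**
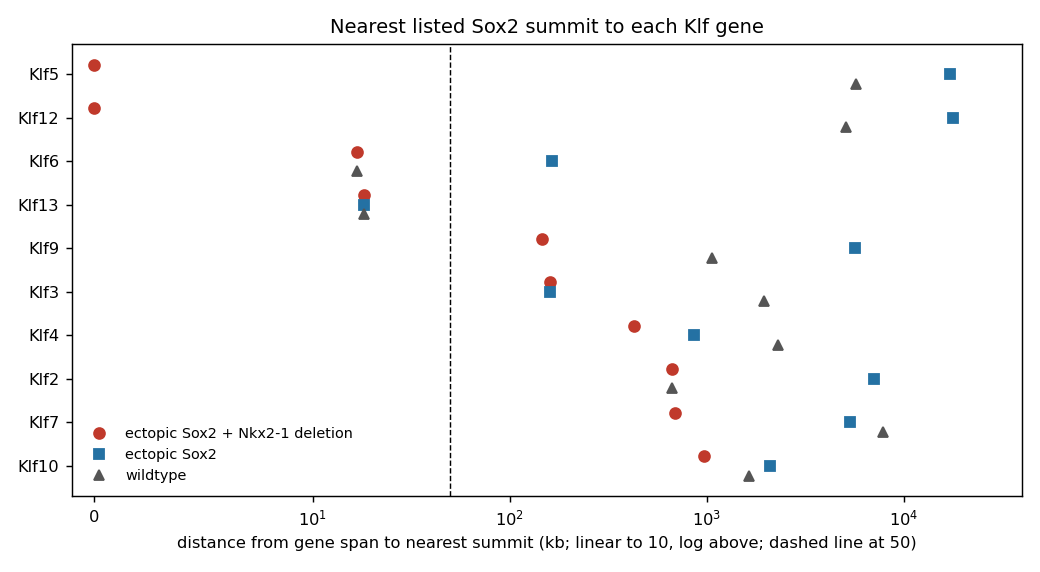
Distance from each Klf gene span to the nearest listed Sox2 summit, in kb on an axis that is linear to 10 and logarithmic above, for each library. Points left of the dashed line at 50 kb are counted as near: Klf5, Klf12, Klf6 and Klf13 with Nkx2-1 deletion, Klf13 with ectopic Sox2, and Klf6 and Klf13 in wildtype.

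Klf13 encodes a widely expressed Klf factor known in T cells as an activator of the chemokine gene Ccl5. Its span lies at chr7:63886351-63938915 (mm10), and its annotated start is at the high-coordinate end, since the gene is on the minus strand. A region 18.3 kb upstream of that start was listed in every library, at chr7:63957092-63957408 with Nkx2-1 deletion, chr7:63957094-63957379 with ectopic Sox2 and chr7:63957090-63957400 in wildtype. The annotation places it within the long non-coding RNA gene Gm39024, and the next protein-coding gene, E030018B13Rik, lies 36.7 kb away. The summit with Nkx2-1 deletion was 11 bp from that with ectopic Sox2 and 15 bp from that in wildtype.

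That Klf13 summit held 87 ChIP fragments (interval 69.7 to 107) with Nkx2-1 deletion, 36 (25.2 to 49.8) with ectopic Sox2 and 67 (51.9 to 85.1) for wildtype. The control background there was equivalent to 4.72 fragments at the ChIP depth with Nkx2-1 deletion, 0.764 with ectopic Sox2 and 2.70 for wildtype. The region was singled out when the genes were chosen, and a listed summit exceeds its control by construction, so these values are a description. The authors' fold enrichment, a value of each summit within its own list, was 12.6 with Nkx2-1 deletion, 16.1 with ectopic Sox2 and 16.9 for wildtype. By −log10 q the summit ranked 15 of 2589 with Nkx2-1 deletion, at 26.6, 3 of 229 with ectopic Sox2, at 22.7, and 1 of 552 in wildtype, at 42.4. A further summit was listed with Nkx2-1 deletion 34.4 kb beyond the other end of Klf13, within the long non-coding RNA gene Gm39023. It was among the weakest of its list, ranking 2512 of 2589 by q, with a fold of 2.86 and 45 fragments over a background equivalent to 14.2.

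Klf6, an immediate-early gene induced by injury and growth signals, spans chr13:5861489-5870393 on the plus strand. Downstream of it, 16.7 kb past the end of the gene, the region chr13:5886911-5887111 with Nkx2-1 deletion overlapped the wildtype region chr13:5886965-5887175 by 147 bp, with summits 27 bp apart. It held 23 fragments (14.6 to 34.5) with Nkx2-1 deletion and 18 (10.7 to 28.4) in wildtype. The fold was 5.37 with Nkx2-1 deletion and 7.96 in wildtype, and the rank by q was 2145 of 2589 with Nkx2-1 deletion and 181 of 552 in wildtype. The site thus stood low in the list with Nkx2-1 deletion and in the upper part of the wildtype list. A second summit with Nkx2-1 deletion lay 22.5 kb past the end of Klf6, with 25 fragments (16.2 to 36.9) and a fold of 5.79, and overlapped no region in the other lists. The ectopic Sox2 list had no summit within 50 kb of Klf6.

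Klf5, a factor of proliferating epithelium, spans chr14:99298691-99313412. With Nkx2-1 deletion, a summit inside the gene at chr14:99305371-99305800 had 66 fragments (51.0 to 84.0), a fold of 5.79 and a −log10 q of 9.66. Another, 26.1 kb beyond the high-coordinate end at chr14:99339421-99339666, had 41 fragments (29.4 to 55.6), a fold of 6.12 and a −log10 q of 6.95. Neither overlapped a region in the other lists, in which the nearest summit lay 17233 kb from Klf5 with ectopic Sox2 and 5735 kb in wildtype. Beyond the 50 kb window, a pair of summits with Nkx2-1 deletion lay in the stretch without protein-coding genes between Klf5 and Klf12. The stronger, 136 kb from Klf5 at chr14:99449191-99449513, had 70 fragments (54.6 to 88.4) and a fold of 7.66. Its −log10 q of 14.2, at rank 170 of 2589, was above that of both summits counted within 50 kb of Klf5. The other, 143 kb away, had 29 fragments (19.4 to 41.6) and a −log10 q of 7.08.

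Klf12 is the next protein-coding gene on that chromosome, at chr14:99866181-100285891, and encodes a repressor that recruits the corepressor CtBP. With Nkx2-1 deletion, 3 summits lay inside its 420 kb span. All were in the far part of the gene, between 249 and 265 kb downstream of the start used here. That start, at chr14:100149796 on the minus strand, lies inside the span, short of its high-coordinate end. The summits lie farther still from that end. They held 46 fragments (33.7 to 61.4) at chr14:99885073-99885381, 36 (25.2 to 49.8) at chr14:99897705-99897987 and 24 (15.4 to 35.7) at chr14:99900896-99901209. Their folds were close together, at 5.12, 5.41 and 5.58, while the control background was equivalent to 7.09, 4.72 and 2.36 fragments in the same order. The nearest summit to Klf12 lay 17801 kb away in the ectopic Sox2 list and 5084 kb away in the wildtype list.

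**Figure D2:**
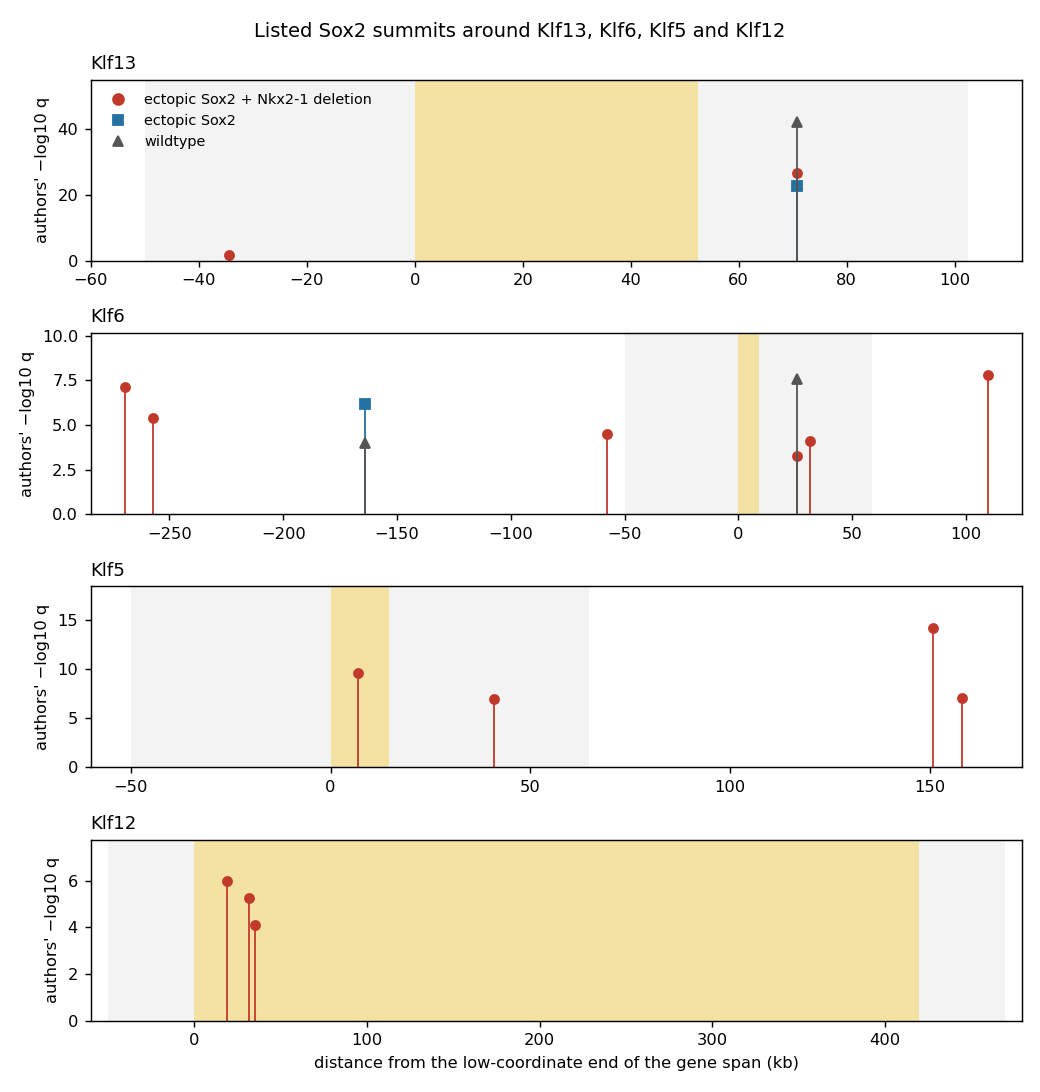
Listed summits around Klf13, Klf6, Klf5 and Klf12, by distance in kb from the low-coordinate end of the gene span, with the authors' −log10 q as height. The gene span is yellow and the 50 kb window grey; the Klf13 site carries all 3 libraries, and the summits of Klf5 and Klf12 come from the library with Nkx2-1 deletion alone.

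Over the 9 summits with Nkx2-1 deletion within 50 kb of a Klf gene, fragments ran from 23 to 87 with a median of 41, beside a median of 38 over the whole list. Their median fold was 5.58, beside 5.73 for the list, and their median −log10 q was 5.26, beside 5.97. By q, 3 of the 9 lay above the list's median: the 18.3 kb site of Klf13 and both summits of Klf5. The Klf13 site was the one that stood far above the rest, since the other 8 had folds of at most 6.12.

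**Figure D3:**
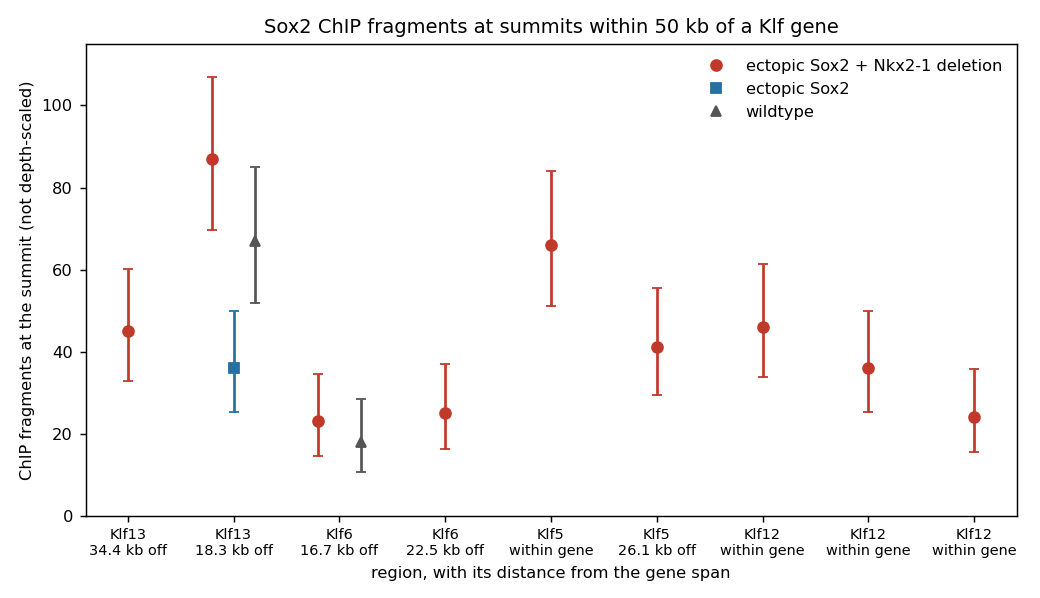
ChIP fragments, not scaled for depth, at each region within 50 kb of a Klf gene, with exact 95% Poisson intervals as bars. The Klf13 site 18.3 kb away has 87 fragments with Nkx2-1 deletion, 36 with ectopic Sox2 and 67 for wildtype, and the remaining summits have 66 or fewer.

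At regions listed in both libraries of a pair, fragments were compared after division by the depth ratio. At the Klf13 site the ratio was 1.27 (interval 0.852 to 1.93) for Nkx2-1 deletion over ectopic Sox2. It was 0.862 (0.619 to 1.20) for Nkx2-1 deletion over wildtype, and 0.679 (0.440 to 1.03) for ectopic Sox2 over wildtype. Each interval includes 1, so a difference between libraries at this site was not detectable at these depths, and ratios up to the interval bounds remain possible. The median over all regions listed in both libraries was 1.25 over 114 regions for Nkx2-1 deletion over ectopic Sox2, close to the Klf13 value. For Nkx2-1 deletion over wildtype the median was 1.33 over 263 regions, above the upper bound at Klf13, and 231 of the 263 regions had a higher ratio than Klf13. For ectopic Sox2 over wildtype the median was 0.958 over 98 regions, within the Klf13 interval, and 89 of the 98 regions had a higher ratio. The Klf13 site was the leading summit in wildtype, and a site picked for that favours a low ratio over wildtype. At the shared Klf6 site the ratio for Nkx2-1 deletion over wildtype was 0.848 (0.438 to 1.67), an interval that includes both 1 and the median of shared regions.

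**Figure D4:**
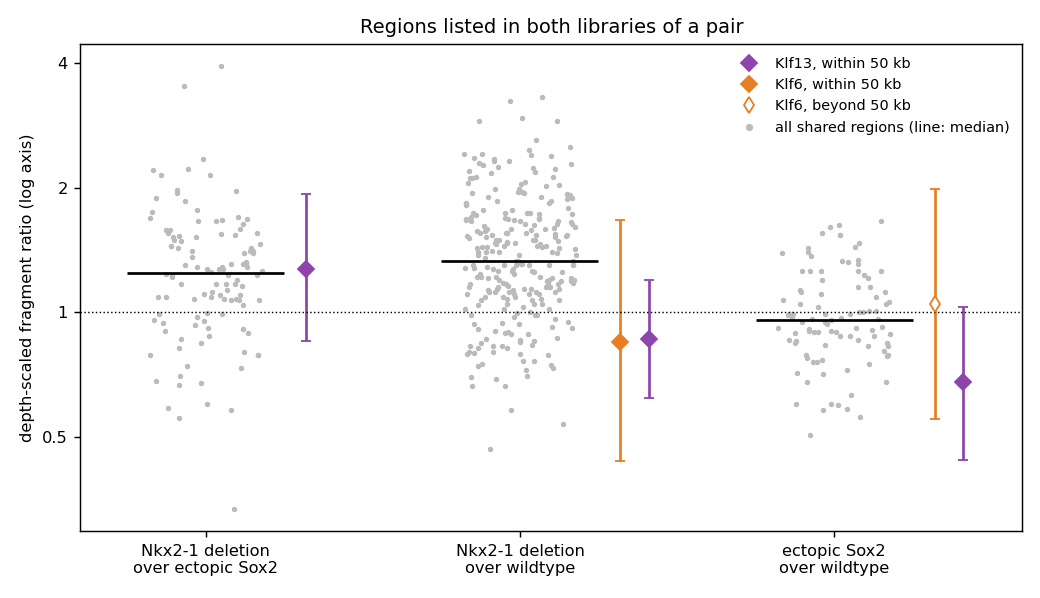
Depth-scaled ratios of ChIP fragments on a log axis, at every region listed in both libraries of a pair (grey, with the median as a line), and at the Klf13 and Klf6 regions with exact 95% conditional binomial intervals. Klf13 sits at the median for Nkx2-1 deletion over ectopic Sox2 and below it in both comparisons with wildtype.

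The other 6 Klf genes lay farther from any listed summit. Nearest was Klf9, a gene induced by glucocorticoid and thyroid hormone, with a summit 145 kb away with Nkx2-1 deletion, 5660 kb with ectopic Sox2 and 1057 kb in wildtype. Klf3, a repressor that works through CtBP, had a summit 160 kb away both with Nkx2-1 deletion, with 61 fragments, and with ectopic Sox2, with 26, and its nearest wildtype summit was 1952 kb away. The nearest protein-coding gene of that summit was Fam114a1, not Klf3. For Klf4 the nearest summit lay 427 kb away with Nkx2-1 deletion, 861 kb with ectopic Sox2 and 2299 kb in wildtype. For Klf2 it lay 669 kb away with Nkx2-1 deletion, 7029 kb with ectopic Sox2 and 669 kb in wildtype. Klf7, a factor of neuronal development, and Klf10, which is induced by TGF-beta, had their nearest summit with Nkx2-1 deletion, 687 kb from Klf7 and 973 kb from Klf10. Of the summits given for these genes, only that of Klf4 with Nkx2-1 deletion had a Klf gene as its nearest protein-coding gene. The Klf9 summit with Nkx2-1 deletion was nearest to Mamdc2.

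Promoter sequences show what lies at the annotated gene starts, while distances within 50 kb were counted from the gene span. RefSeq promoter windows of 300 bases, 250 before and 50 after a start (GRCm38.p6, the same build as mm10), were matched for 8 of the 10 genes. None of the 8 windows held a summit in any list. The 250 bases before the start, 5′ to 3′ on the gene's strand, are shown for the matched genes that had a summit within 50 kb, with CACCC or its reverse complement GGGTG, the letters Klf proteins bind, in capitals. Klf13 is on the minus strand at chr7:63938916-63939165, Klf6 on the plus strand at chr13:5861239-5861488, and Klf12 on the minus strand at chr14:100149797-100150046. The Klf12 stretch lies inside the gene span, since the start used is an internal one.
Klf13: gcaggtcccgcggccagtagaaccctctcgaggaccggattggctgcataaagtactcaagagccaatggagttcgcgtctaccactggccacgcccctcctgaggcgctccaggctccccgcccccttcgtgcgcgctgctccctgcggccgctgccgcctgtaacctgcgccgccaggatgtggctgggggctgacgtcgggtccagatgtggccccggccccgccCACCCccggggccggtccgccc
Klf6: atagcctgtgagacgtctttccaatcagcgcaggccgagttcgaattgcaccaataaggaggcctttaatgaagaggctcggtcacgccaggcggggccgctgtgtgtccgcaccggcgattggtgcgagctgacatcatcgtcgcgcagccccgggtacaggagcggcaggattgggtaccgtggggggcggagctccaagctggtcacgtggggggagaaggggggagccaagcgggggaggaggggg
Klf12: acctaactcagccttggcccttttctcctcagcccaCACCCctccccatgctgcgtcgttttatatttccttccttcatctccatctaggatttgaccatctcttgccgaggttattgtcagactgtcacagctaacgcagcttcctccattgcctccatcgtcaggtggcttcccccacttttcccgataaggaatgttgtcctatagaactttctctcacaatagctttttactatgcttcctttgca
In the whole windows, searched on both strands, the Sox letters ACAAAG were in 0 of the 8 Klf windows, against 18.7% of all 32851 windows. The Sox letters ACAATG were in 1 of 8, that of Klf13, not within the stretch printed, against 12.6% of all windows. CACCC was in 6 of 8, those of Klf2, Klf3, Klf7, Klf9, Klf12 and Klf13, against 57.5% of all windows. These searched letters do not overlap each other. A match is a description of these letters, and nothing about the bound sites follows from it.

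Each Klf summit within 50 kb was also carried to the depth of the library that did not list it, with the background scaled likewise. This was done after the lists were seen. A summit that passed calling in the library it is carried from is picked for a high count there, which favours passing when carried. At the ectopic Sox2 depth, 8 of the summits with Nkx2-1 deletion were not listed. At an equal rate per depth, 7 of those 8 would have had a −log10 p above the lowest value listed with ectopic Sox2, 5.47. At the lower bound of their fragment counts, 1 of the 8 would, the summit inside Klf5. It would have had 34.7 fragments and a −log10 p of 12.2, or 26.8 fragments and 8.09 at the lower bound. The other 7, including all 3 of Klf12, came below 5.47 at the lower bound. The shared Klf6 site, carried from wildtype, would have had 14.3 fragments and a −log10 p of 9.41, or 4.64 at the lower bound. Carried from Nkx2-1 deletion, that site would have had 12.1 fragments and 5.72, or 2.87 at the lower bound. Why these summits are not listed was not tested. At the wildtype depth, 7 summits were not listed, all 7 would have passed the lowest value listed there, 5.27, and 4 would at the lower bound. Those 4 were both summits of Klf5, with 43.8 and 27.2 expected fragments, and the Klf12 summits with 30.5 and 23.9. At regions listed in both libraries, the median depth-scaled ratio was 1.25 for Nkx2-1 deletion over ectopic Sox2 and 1.33 over wildtype. Fragments expected at an equal rate per depth may therefore run high.

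The rest of the Klf family and the related Sp genes share the zinc finger domain. None of the 7 other Klf genes (Klf1, Klf8, Klf11, Klf14, Klf15, Klf16 and Klf17) had a summit within 50 kb in any list. Of 9 Sp genes, 1 had a summit with Nkx2-1 deletion and 0 in both other lists. Over all protein-coding genes the share was 13.1% with Nkx2-1 deletion, 1.53% with ectopic Sox2 and 2.85% for wildtype, and counts this small over 16 genes are near it. The Sp gene was Sp8, a factor of limb and forebrain development, with 38 fragments (26.9 to 52.2) at 30.0 kb.

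Among 16 genes for partners and regulators of Klf proteins, 5 were within 50 kb of a summit with Nkx2-1 deletion, beside 13.1% of all protein-coding genes. With ectopic Sox2 there were 0, beside 1.53%, and in wildtype 0, beside 2.85%. Both CtBP corepressor genes were among them, Ctbp2 with 60 fragments (45.8 to 77.2) inside the gene and Ctbp1 with 48 (35.4 to 63.6) at 23.2 kb. The Ctbp1 summit was nearest to another gene, Spon2. Wwp1, which encodes a ubiquitin ligase that targets Klf5 in human cells, had 59 fragments (44.9 to 76.1) at 19.5 kb. Hdac2, a histone deacetylase gene, had a summit at 0.780 kb with 37 fragments (26.1 to 51.0) and a weaker one at 48.2 kb with 28. Mef2a, of the Mef2 family that acts upstream of Klf2 and Klf4 in endothelium, had 35 (24.4 to 48.7) inside the gene. Ctbp1 stood on the weakest of these, with a −log10 q of 2.34. The partner genes were chosen with earlier results of these data known, so their count is a description without a test.

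Summits lay within 50 kb of 5 of 16 genes known as targets of Klf factors in the library with Nkx2-1 deletion, beside 13.1% of all protein-coding genes. With ectopic Sox2 the count was 0, beside 1.53%, and in wildtype 1, beside 2.85%. Lgals3, a galectin gene repressed by Klf3, had 2 summits inside the gene with Nkx2-1 deletion, with 57 fragments (43.2 to 73.9) and 28 (18.6 to 40.5). S1pr1, the Klf2 target that lets T cells leave lymphoid tissue, had a summit at 20.8 kb with 37 fragments (26.1 to 51.0) and a fold of 8.33. Pdgfa had 31 fragments (21.1 to 44.0) inside the gene, and Vcam1, an endothelial adhesion gene, had 26 (17.0 to 38.1) at 4.69 kb. Cdh1, the E-cadherin gene, was the target with a summit in 2 lists, at sites inside the gene that did not overlap. Not scaled for depth, they held 45 fragments (32.8 to 60.2) with Nkx2-1 deletion and 32 (21.9 to 45.2) in wildtype. With Nkx2-1 deletion its fold was 3.34 and its −log10 q 2.84, the lowest of the target summits in that list. In wildtype its fold was 4.94 and its −log10 q 6.16. The target genes, too, were chosen with earlier results of these data known, and their count was not tested.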

How the data were processed

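The 3 Sox2 ChIP-seq libraries were deposited with 1 narrowPeak list each, called per library and not on a pool. The submitters' processing notes name Bowtie2 2.2.9, SAMtools 1.4, MACS2 2.1.1, HOMER 4.8.3 and mm10. The control behind each list, the calling threshold and the handling of duplicates: not given in the sources used here. In the deposited lists a summit has a score, a fold ratio of ChIP to local control, −log10 p and −log10 q, and these were used only within a list. Positions are printed counting from 1.

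From the deposited fold ratio (pseudocount 1) and −log10 p, the ChIP pileup and control background of a summit were solved. Pileups were whole fragments times a scale of 0.423 (Nkx2-1 deletion), 0.638 (ectopic Sox2) and 0.741 (wildtype), within a tolerance of 0.02. A unique solution was found for 96.6% of summits with Nkx2-1 deletion, 96.1% with ectopic Sox2 and 97.5% for wildtype, including every summit within 50 kb of a Klf gene. Summits without a unique solution stay out of fragment medians and ratios. The recovery was tested on data simulated with the same formula, which cannot show whether the deposited values follow it. Depth is the genome background divided by the scale. Regions overlapped at 1 bp or more, and ratios have no background subtraction.

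Genes came from RefSeq GRCm38.p6 spans and promoter windows, with strand from the latter. Named genes are the 10 members, every gene of the other lists with a summit within 50 kb, and the neighbours of member summits. The members and lists were chosen with earlier results of these data known. Alternatives were gene windows of 10 and 100 kb, the nearest gene alone, −log10 q of at least 5, no regions found in all 3 lists, 1 summit per region, background subtraction and a reciprocal overlap of 50%. Peak sequences were not used, since no genome sequence was. Python 3.11.15, numpy 2.4.6, pandas 2.3.3 and scipy 1.17.1 were used.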

Additional observations from a re-analysis of the deposited data

How the results depend on the processing

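Within 10 kb, 2 of the 10 Klf genes had 4 summits with Nkx2-1 deletion, beside 6.46% of all protein-coding genes. In either other list 0 had 0, beside 0.736% with ectopic Sox2 and 1.37% for wildtype. By nearest gene, the Klf summits were 16 with Nkx2-1 deletion and 2 with ectopic Sox2, where they belonged to 2 genes (1.00% of all genes). With −log10 q of at least 5, 5 of the 9 summits with Nkx2-1 deletion remained. Without regions found in all 3 lists, ectopic Sox2 had 0 Klf genes and 0 summits, and wildtype 1 and 1. The share of all protein-coding genes was not computed for that setting, so these counts have no comparison. Of the 16 other Klf and Sp genes, Nkx2-1 deletion had 0 within 10 kb (6.46% of all genes), 2 within 100 kb (20.7%) and 2 by nearest gene (8.48%). Of the 16 partners, 3 were within 10 kb with Nkx2-1 deletion (6.46% of all genes), and 1 within 100 kb in wildtype (4.66%). Of the values recomputed, 19 moved, as given above, and 63 stayed within 1.5 times the count or within the interval of the ratio, including all ratios with background subtraction and with a reciprocal overlap of 50%. No paired analysis was possible because each condition has 1 library. Mean coverage was 1.45 fragments with Nkx2-1 deletion, 0.763 with ectopic Sox2 and 0.964 for wildtype, and this sets the counting intervals.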

Other observations

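Around Klf6, the stretch without protein-coding genes upstream of the gene held a region that was listed in both shallower libraries and not in the deepest one. It lay 164 kb upstream, at chr13:5697386-5697597 with ectopic Sox2 and chr13:5697411-5697620 in wildtype, within the non-coding gene Gm35330, with summits 3 bp apart. It held 20 fragments (12.2 to 30.9) with ectopic Sox2 and 24 (15.4 to 35.7) for wildtype, a depth-scaled ratio of 1.05 (0.551 to 1.99) for ectopic Sox2 over wildtype. At the depth of the library with Nkx2-1 deletion, the ectopic Sox2 rate would give 38.1 fragments and a −log10 p of 14.9, or 6.91 at the lower bound of its count. The wildtype rate would give 36.2 fragments and 7.78, or 3.45 at the lower bound. The lowest value listed with Nkx2-1 deletion was 4.70. The lower-bound counts were nearly equal, at 23.3 fragments from ectopic Sox2 and 23.2 from wildtype, so these values differ by the control background carried with each. The region was picked because both shallower libraries listed it, which favours high counts there and high carried values. Why the region is not listed with Nkx2-1 deletion was not tested.

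With Nkx2-1 deletion, 4 other summits beyond 50 kb had Klf6 as their nearest protein-coding gene. Those upstream lay at 57.6, 257 and 270 kb, with 50, 50 and 26 fragments, and the one downstream lay at 101 kb with 44 fragments and the highest −log10 q of the 4, at 7.80. Klf4 was the nearest gene of 1 summit with Nkx2-1 deletion, 427 kb away, with 17 fragments (9.90 to 27.2) and a −log10 q of 2.89. Distance to a nearest gene does not show that a site acts on it.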
